A study of Homo sapiens with 11 samples.

Results

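The subject is the change in rank and in width of single Ikaros ChIP-seq peaks between untreated JM1 cells and JM1 cells given 20 µM CX-4945 for 1 day. Peaks of the 2 deposited lists on chromosomes 1 to 22 and X were paired where they overlapped by at least 1 bp, each peak being used once and going to the partner with the longest overlap. This gave 25503 pairs, from 37419 untreated and 88622 treated peaks, out of 300249 peaks in the 5 Ikaros lists of the series. JM1 is an established human pre-B acute lymphoblastic leukemia (ALL) line grown in suspension. Both JM1 Ikaros libraries were precipitated with the same Bethyl antibody. The other 3 lists, from untreated REH, untreated 697 and CX-4945-treated Nalm6 cells, served here for reference only. The series asks where Ikaros binds in high-risk B-ALL cells and how inhibiting the kinase CK2 alters that binding, with the BCL2L1 gene, which encodes Bcl-xL, as its named target. Each condition had 1 list, so no difference below has a replicate check and none was tested, and intervals given for shares are 95% exact Clopper-Pearson intervals that cover counting error only.

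Ikaros, encoded by IKZF1, is a zinc finger transcription factor of lymphoid cells that binds DNA at sites with a GGGAA core and works with chromatin remodeling complexes to activate or silence genes. CK2 is a constitutively active serine/threonine kinase, built of catalytic and regulatory subunits, which phosphorylates Ikaros and is known to lower its DNA binding. CX-4945 (silmitasertib) competes with ATP for the catalytic subunits of CK2. A ChIP-seq peak is a stretch of genome where the antibody enriched more fragments than the background allows.

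The regions that moved farthest are shown first, as the 200 bases at the centre of the overlap of the paired peaks, on the plus strand of GRCh38. Capitals mark GGGAA or its reverse complement TTCCC. The 3 rises lie at chr1:37514510-37514709 over an exon of MEAF6, at chr1:1574865-1575064 over the lncRNA AL645728.1 beside SSU72, and at chrX:52935016-52935215 in an intron of FAM156A, a gene with a near-identical copy (FAM156B) between which reads may be split.

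MEAF6: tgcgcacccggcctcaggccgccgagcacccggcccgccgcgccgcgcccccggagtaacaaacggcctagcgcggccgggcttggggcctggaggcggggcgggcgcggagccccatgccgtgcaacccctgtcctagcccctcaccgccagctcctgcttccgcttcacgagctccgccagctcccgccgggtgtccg
AL645728.1: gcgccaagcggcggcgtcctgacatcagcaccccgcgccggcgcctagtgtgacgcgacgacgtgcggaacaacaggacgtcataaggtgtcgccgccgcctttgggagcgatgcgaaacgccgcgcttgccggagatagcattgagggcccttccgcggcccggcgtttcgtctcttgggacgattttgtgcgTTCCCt
FAM156A: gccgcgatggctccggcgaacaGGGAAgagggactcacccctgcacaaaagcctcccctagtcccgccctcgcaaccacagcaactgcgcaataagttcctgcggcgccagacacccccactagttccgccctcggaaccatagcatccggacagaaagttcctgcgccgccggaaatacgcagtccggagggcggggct

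The 2 falls lie at chr19:21750820-21751019 over the processed pseudogene CCNYL6 inside ZNF100, and at chr2:128560040-128560239 with no annotated gene. The deposited lists name them AC092364.2 and AC012451.1.

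AC092364.2: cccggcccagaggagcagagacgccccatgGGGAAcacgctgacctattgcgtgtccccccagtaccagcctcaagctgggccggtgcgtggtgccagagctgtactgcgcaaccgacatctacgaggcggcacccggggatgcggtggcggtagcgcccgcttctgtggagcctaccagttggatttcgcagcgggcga
AC012451.1: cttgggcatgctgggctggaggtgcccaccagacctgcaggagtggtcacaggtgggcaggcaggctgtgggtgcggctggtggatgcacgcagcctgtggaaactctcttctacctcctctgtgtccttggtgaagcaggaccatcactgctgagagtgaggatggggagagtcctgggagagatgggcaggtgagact

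The rises were CpG-rich, with 27, 30 and 18 CpG dinucleotides per window, and held 0, 1 and 1 matches to GGGAA or TTCCC. The falls held 18 and 2 CpG and 1 and 0 such matches.

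Each peak carries a whole-number score, the authors' own value and of a definition not given in the sources used here. Scores from 2 lists share no common scale, so each score was turned into a percentile, the share of its own list that scored lower, with ties counted at their midpoint. The scale is coarse at its lower end. In the untreated list a score of 10 was percentile 1.91, a score of 12 was 18.2, a score of 15 was 49.9 and a score of 25 was 91.7. In the treated list scores of 15, 25 and 50 were percentiles 32.9, 76.7 and 95.2. Scores of 15 and 25 therefore ranked lower in the longer treated list, while a score of 10 was at percentile 2.00 there. The shift of a pair is the treated minus the untreated percentile, in points, and a shift of at least 25 points is called a rise or, downward, a fall. The pairs nearest this limit in the whole lists had shifts of 25.02 and 24.95 points upward and -25.2 and -24.9 points downward. Because the lists differ in length, most comparisons were repeated with both lists limited to as many top-scored peaks as the untreated list holds, 37448. This removed treated peaks under a score of 19 and 3526 of the 4121 at it, and left 18933 pairs. These are called the equal-length lists below. Named changes of width, treated peaks over several untreated ones and most single members of gene groups are given for the whole lists only.

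Most untreated peaks had a partner, and most partners stood higher in the treated list. The median percentile of paired peaks was 58.2 untreated and 76.7 treated, and the median shift was 15.7 points (quartiles -0.81 and 37.7). Rises were 9705 of the 25503 pairs (38.1%) and falls 1648 (6.46%). A further 5957 untreated peaks overlapped no treated peak, and 5959 overlapped a treated peak that was paired with another. In the treated list 62945 peaks overlapped no untreated peak. With equal-length lists the median shift was 0.0020 points, rises were 3873 (20.5%) and falls 3516 (18.6%). The excess of rises over falls in the whole lists was thus far smaller once the lists had the same length. Of the whole-list pairs, 5633 (22.1%) had a treated peak below the edge of the equal-length list and could not enter it. Untreated and treated percentiles had a Spearman correlation of 0.44 over the 25503 pairs and 0.39 over the 18933, given as a description, since all pairs come from the same libraries.

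Annotation classes differed little in their overall median and much in their falls. The authors' annotation put 8199 untreated peaks of pairs at promoters (around transcription start sites), 7990 in introns, 4734 between genes, 2582 in exons and 1998 at transcript ends. Median whole-list shifts were 14.8 points at promoters, 14.9 in exons, 16.01 in introns, 18.1 at transcript ends and 15.8 between genes, with rises in 36.6, 37.3, 39.0, 40.1 and 38.6% of pairs. Falls made up 3.44% of promoter pairs (interval 3.06 to 3.86) and 9.38% of intergenic pairs (8.56 to 10.2), on either side of the 6.46% over all pairs. Equal-length medians were 3.53 points at promoters, -1.14 in exons, -1.69 in introns, -4.40 at transcript ends and -3.81 between genes. There, promoter pairs had 23.5% rises and 12.2% falls, and intergenic pairs 18.1 and 24.5%. Promoter peaks also found a partner more often, with 83.3% of 9841 untreated promoter peaks paired against 59.7% of 7926 intergenic ones in the whole lists.

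The classes started from different ranks, which limits how far each could move. The median untreated percentile of pairs was 70.8 at promoters, 49.9 in introns and 40.3 between genes. Within each filled decile of the untreated percentile the promoter class had the highest median shift, in 9 of 9 deciles in the whole lists and 9 of 9 in the equal-length lists. In the lowest decile the whole-list median shift was 71.0 points for 422 promoter pairs and 48.2 for 687 intergenic pairs. In the top decile it was -0.39 for 1807 promoter pairs and -10.3 for 355 intergenic pairs, and with equal-length lists -5.40 and -24.1. Intergenic pairs had the lowest median, alone or tied, in 9 of 9 deciles of the whole lists and in 7 of 9 of the equal-length lists.

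**Figure D1:**
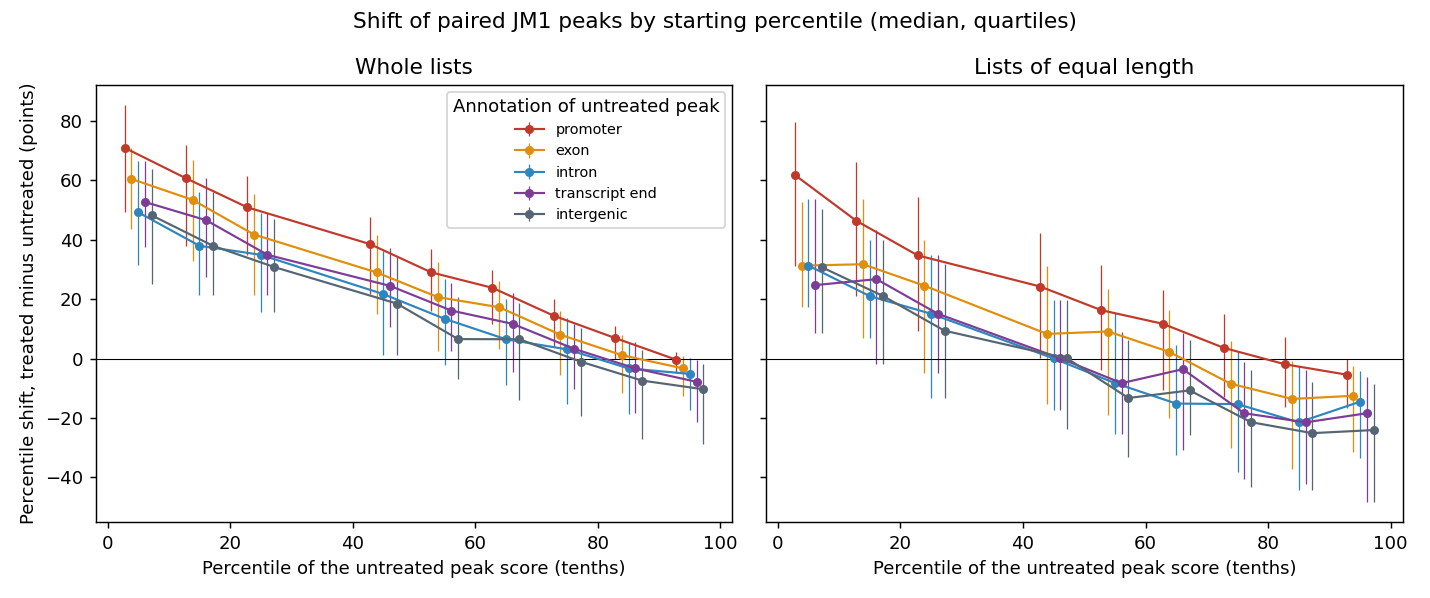
Median percentile shift (points, bars from the lower to the upper quartile) of paired JM1 peaks against the decile of the untreated percentile, by annotation class, in whole lists (left) and equal-length lists (right). The promoter line is the highest in all 9 filled deciles of both panels, and in the whole lists every class falls from left to right.

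This ordering depends on which list the pairs are matched on. Each shift was also set against the median shift of pairs with the same or a neighboring untreated score. On that measure the median was 5.21 points for promoters, 0.77 for exons, -4.69 for introns, -3.18 for transcript ends and -8.14 between genes in the whole lists. Promoter and intergenic medians were 13.4 points apart, and 19.8 apart with equal-length lists. Set instead against pairs with the same treated score, the promoter median was -0.10 points and the intergenic median 0, and -0.39 and 0 with equal-length lists. Of peaks equally ranked before treatment, promoter peaks ranked higher after it. Of peaks equally ranked after treatment, promoter and intergenic peaks had nearly the same median shift.

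**Figure D2:**
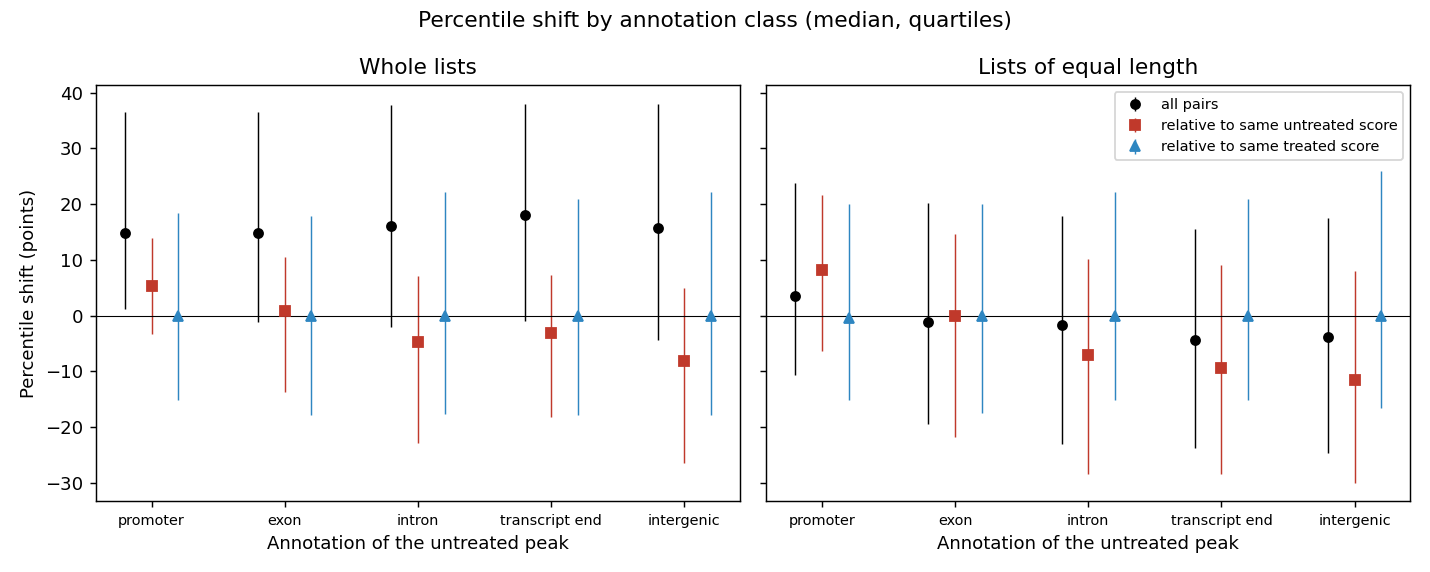
Percentile shift (points) by annotation class of the untreated peak, as the median with quartile bars, for all pairs (black), relative to pairs of the same untreated score (red) and relative to pairs of the same treated score (blue), in whole lists (left) and equal-length lists (right). Red medians run from 5.21 at promoters to -8.14 between genes in the whole lists, and blue medians lie within 0.39 points of 0 in both panels.

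Retention at the top of the list also differed between the classes. Of the 3337 paired peaks in the top decile of the untreated list, 62.4% (60.8 to 64.1) were in the top decile of the treated list. The share was 75.3% (73.2 to 77.2) of 1807 promoter peaks, 56.2% of 356 exon peaks, 49.5% of 653 intron peaks, 43.98% of 166 transcript-end peaks and 35.8% (30.8 to 41.0) of 355 intergenic peaks. With equal-length lists it was 49.3% (46.9 to 51.7) at promoters, 17.6% at transcript ends and 18.2% (14.0 to 23.1) between genes. Over chromosomes, whole-list median shifts ran from 11.4 points on chromosome 12 to 18.1 on chromosome 4, and equal-length medians from -3.81 on chromosome 22 to 4.50 on chromosome 4.

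The largest rises were peaks at the foot of the untreated list that ranked among the top peaks of the treated list. All 10 had a score of 10 untreated (percentile 1.91) and of 57 to 129 treated, and 8 of 10 were annotated as promoters. Only a start at that score left room for shifts this large, since a score of 11 was already percentile 7.90. Relative to pairs with the same untreated score, the shifts were 43.5 points (MEAF6) to 40.3 (GLG1 and TIMM50). The MEAF6 peak, 83 bp from the start of a transcript of this histone acetyltransferase complex subunit, had scores of 10 and 129 and shifted by 97.7 points. The peak at CENPS-CORT, a readthrough of the gene for centromere protein S, had scores of 10 and 117 (97.5 points). The AL645728.1 peak, which the treated list names for SSU72, an RNA polymerase II phosphatase, had scores of 10 and 93 (97.1 points). These 3 stood at the foot of one list and near the top of the other.

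The next were CENPO, which encodes another centromere protein (10 and 80, 96.5 points), and PDK1, encoding a kinase that inhibits pyruvate dehydrogenase (10 and 76, 96.3 points). FAM156A (10 and 75, 96.2 points) and IMPDH1, for an enzyme of guanine nucleotide synthesis (10 and 69, 95.8 points), came after them. MSANTD3 shifted by 95.3 points (10 and 63). GLG1, for a Golgi protein, and TIMM50, for a subunit of the mitochondrial import machinery, each had scores of 10 and 57 and shifted by 94.5 points. Their known products range from chromatin and centromere proteins to metabolic enzymes.

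All 10 pairs were also present in the equal-length lists, with shifts of 97.1 points for MEAF6 to 89.7 for GLG1 and TIMM50. There, 7 of the genes were again among the 10 largest rises. The other 3 were PDRG1 (scores of 11 and 282, 92.0 points), C17orf97 (11 and 271, 92.0 points) and NPRL3, which encodes a subunit of the GATOR1 regulator of mTORC1 (11 and 267, 92.0 points). Every one of the 10 whole-list rises overlapped a peak of untreated REH, at a median REH percentile of 95.4, so these regions ranked high in a line that had received no CX-4945. The lowest was FAM156A, at percentile 76.3 in REH, and the highest MEAF6, at 98.9. The 697 list overlapped 6 of the 10 and the Nalm6 list 8. Over all whole-list rises the shares were 93.1% for REH, 37.2% for 697 and 81.3% for Nalm6.

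**Figure D3:**
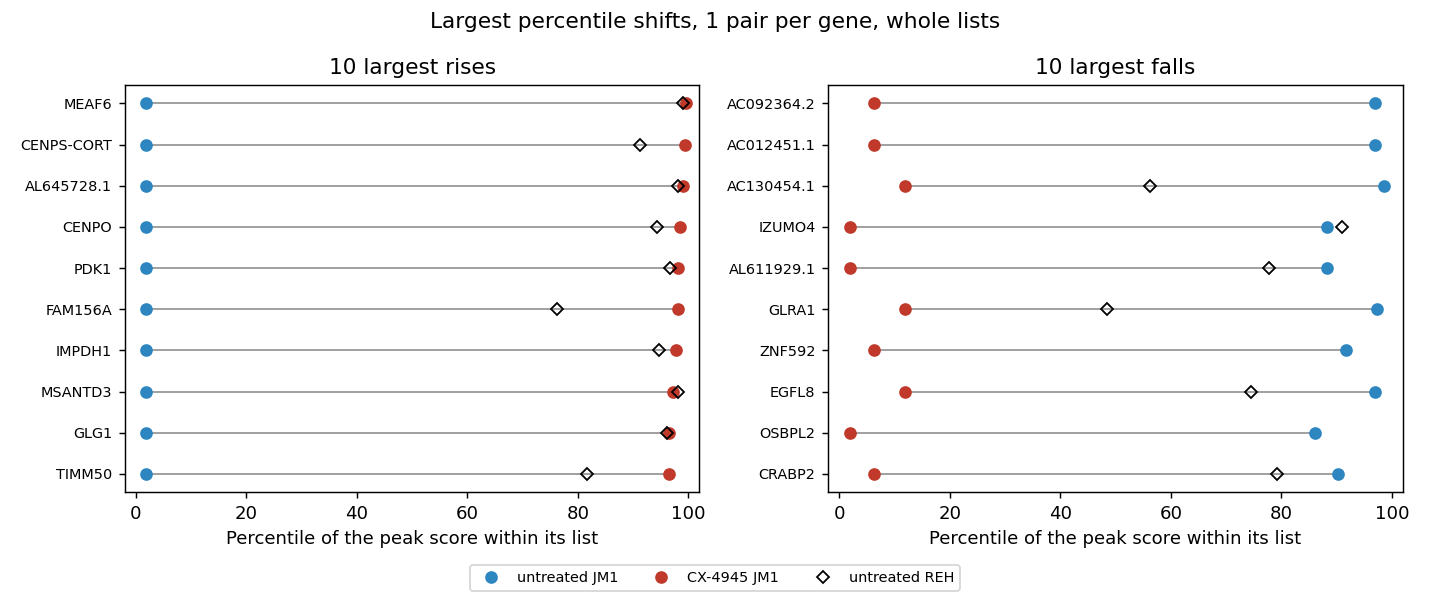
Percentile of the peak score in untreated JM1 (blue), CX-4945-treated JM1 (red) and, where an untreated REH peak overlapped, in REH (open diamond), for the 10 largest rises (left) and falls (right) of the whole lists, 1 pair per gene. All 10 rises run from percentile 1.91 to above 96 and have a REH diamond, and the falls run the other way with a diamond for 6 of 10.

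The largest falls were narrow untreated peaks, mostly away from promoters. Their untreated scores were 22 to 37 and their treated scores 10 to 12. The median width was 342 bp untreated and 1187 bp treated, and 9 of the 10 treated peaks were the wider of the pair. AC092364.2 and AC012451.1 each had scores of 31 and 11 and shifted by -90.5 points. AC130454.1 had 37 and 12 (-86.7 points). IZUMO4 and AL611929.1 each had 23 and 10 (-86.3 points). In all 5 the treated peak was at or below percentile 11.9 of its list.

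The remaining 5 were GLRA1, encoding a glycine receptor subunit (32 and 12, -85.4 points), an intergenic peak nearest to ZNF592 (25 and 11, -85.3 points), EGFL8 (31 and 12, -84.9 points), OSBPL2, for an oxysterol-binding protein (22 and 10, -84.0 points), and CRABP2, for a retinoic acid binding protein (24 and 11, -83.8 points). REH peaks overlapped 6 of the 10, 697 peaks 0 and Nalm6 peaks 7, against 84.8, 16.9 and 64.6% of all whole-list falls. None of these 10 pairs entered the equal-length lists, since their treated scores were below 19.

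Within the equal-length lists the largest falls were pairs whose treated peak lay at the edge. MXI1, encoding a MAX-binding repressor, had an intergenic peak with scores of 36 and 19 and shifted by -97.6 points. It was followed by GRID1 (31 and 19, -96.1 points), AL133445.1 (43 and 20, -92.6 points), RSPO1 and HPDL (both 26 and 19, -92.2 points) and NFIX (39 and 20, -92.2 points). ADAMTS3 shifted by -91.7 points (36 and 20), SERBP1 and RPS28P1 by -91.3 points (both 34 and 20), and WNT2B by -90.9 points (25 and 19). Of the 4121 treated peaks with a score of 19, 595 were kept, in order of chromosome name. Which pairs at that score are named therefore depends on the tie rule. With all ties kept, the 10 shifts ran from -93.4 (MXI1) to -83.2 points (SERBP1 and RPS28P1). In the whole lists the same 10 pairs shifted by -42.3 (MXI1) to -35.6 points (WNT2B), so they were falls in both, and 0 of the 10 genes were among the 10 largest falls of the whole lists. REH peaks overlapped all 10, against 95.9% of all equal-length falls.

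Genes with several pairs let neighboring peaks be set side by side. In the whole lists 2093 genes had at least 3 pairs, by the gene name of the untreated peak. All pairs rose in 69 of them and all fell in 0, and with equal-length lists the counts were 5 and 10 of 1214. Over single pairs 38.1% rose and 6.46% fell, and 20.5 and 18.6% with equal-length lists. Whether the pairs of a gene moved together more than unrelated pairs was not tested. The highest median shift was that of ZNF420, a zinc finger gene, with intron pairs at scores of 11 and 34 (81.0 points), 13 and 18 (21.4 points) and 11 and 34 (81.0 points). ORAI2, for a calcium channel subunit, had pairs of 10 and 47 (92.6 points), 12 and 50 (77.1 points) and 22 and 38 (5.25 points). Within each of these genes 1 pair stayed under the limit for a rise.

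WASF2, for an actin regulator, had a median of 71.4 points, from pairs of 12 and 35 (71.4 points) and 10 and 25 (74.8 points) upstream and one of 29 and 35 (-6.18 points) at its start. RPL32P34 and NAV2 completed the 5, with medians of 71.0 and 68.8 points. With equal-length lists the highest were ORAI2 (70.5 points), PTPRE (59.6), ZNF385C (52.4), OSBPL7 (51.9) and SH2D3C (50.6). ORAI2 was the one gene in the top 5 of both.

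Among the lowest was EBF1, the B-lineage transcription factor gene, with a median of -53.1 points. Its promoter peak at chr5:158707532-158708390, at an internal start, had scores of 18 and 12 (-58.9 points), and its intron peak had 22 and 15 (-53.1 points). The wide peak at the promoter at chr5:159095249-159101024 had 24 and 43 (3.14 points). The falls were thus within the gene and not at its upstream promoter. The lowest median was that of KSR1P1, at intergenic peaks of chromosome 10 with scores of 23 and 11 (-82.0 points), 17 and 11 (-58.7 points) and 20 and 20 (-19.3 points). These peaks lay far from the transcript they are named for, 274933, 265950 and 37214 bp from its start. TMEM266 (-53.1 points), MYOM2 (-37.9) and TXN2 (-37.9) each had 2 falls beside 1 rise. With equal-length lists the lowest were SMYD2 (-69.0 points), TRARG1 (-63.4), EPHA8 (-59.3), TNS1 (-58.3, over 5 pairs) and MIR378C (-58.2). The MIR378C peaks were intergenic, 77251 to 192881 bp from its start.

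Treated peaks were wider than their untreated partners almost throughout. The median width of paired peaks was 989 bp untreated and 2312 bp treated, a median log2 ratio of 1.204. The treated peak was the wider in 88.3% of pairs, at least 2-fold wider in 14394 (56.4%) and at least 2-fold narrower in 577 (2.26%). Equal-length lists gave nearly the same, with 1073 and 2499 bp, 10573 pairs 2-fold wider (55.8%) and 288 narrower (1.52%). Promoter pairs widened least, with a median log2 ratio of 0.95 and 48.2% (47.1 to 49.3) 2-fold wider. The others had 1.23 in exons, 1.34 in introns, 1.34 between genes and 1.54 at transcript ends, where 66.5% (64.4 to 68.6) were 2-fold wider. In the whole lists width moved little with rank, since the shift and the log2 ratio had a Spearman correlation of 0.037 over the 25503 pairs. Over the 18933 equal-length pairs it was -0.12. With shifts relative to pairs of the same untreated score these correlations were -0.068 and -0.22. The median treated width of equal-length pairs was 3184 bp in falls, 1905 bp in rises and 2569.5 bp in the other pairs.

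**Figure D4:**
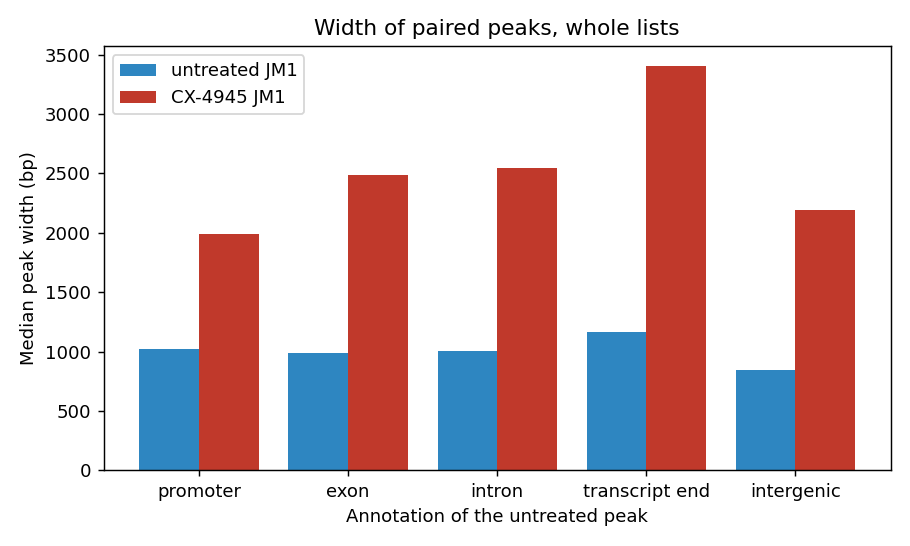
Median width (bp) of the untreated (blue) and treated (red) peak of each pair, by annotation class, in the whole lists. Treated medians run from 1991 bp at promoters to 3405 bp at transcript ends, against untreated medians of 847 to 1165 bp over all classes.

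The largest gains of width were short untreated peaks inside long treated ones. AC020763.3 had 316 bp untreated and 18810 bp treated, COL7A1, for a collagen, 475 and 20080 bp, and AC139099.2 363 and 15341 bp. AC090286.4 had 318 and 13322 bp and FAM83E 322 and 13284 bp. Their shifts ranged from -2.04 points (AC020763.3 and AC090286.4) to 62.6 points (FAM83E). The largest losses were at LINC02800 (3244 to 358 bp), NFIC (2583 to 320 bp), KSR1P1 (2231 to 336 bp), AF064858.1 (2178 to 332 bp) and SH3PXD2B (2057 to 320 bp). Of treated peaks 3641 overlapped at least 2 untreated peaks, and of untreated peaks 217 overlapped at least 2 treated ones. The longest such region near AK6P1, on chromosome 12, was 95904 bp and covered 19 untreated peaks with a summed width of 57468 bp. At FGFR3, for a fibroblast growth factor receptor, a treated peak of 72975 bp covered 13. Such regions enter the pairs once, by their longest overlap.

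For named gene groups, each gene was described by the highest-ranked untreated peak among its promoter pairs or, where it had none, among all its pairs. Of 16130 genes with a pair, 33.7% rose and 6.03% fell in the whole lists, with a median shift of 12.3 points, and these are the values beside which each group is to be read. Of 13803 genes in the equal-length lists 20.7% rose and 16.9% fell, with a median of 0.56 points. Where the pair with the highest untreated rank has no partner in the equal-length lists, another pair can stand for the gene there.

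The BCL2 family, the regulators of mitochondrial apoptosis, had a pair for 15 of 17 genes, of which 5 rose and 0 fell (33.3 and 0%), with a median shift of 20.9 points. Among survival genes, the BCL2L1 promoter peak at chr20:31721864-31723521 had scores of 17 and 63 and percentiles of 65.0 and 97.2, a rise of 32.1 points that was 28.3 points with equal-length lists. Its width went from 1658 to 2548 bp. BCL2L2, for Bcl-w, had scores of 13 and 57 (66.6 points), MCL1 22 and 93 (12.9 points) and BCL2 22 and 33 (2.07 points). BCL2L10 had 16 and 31 (28.0 points). Bcl-w and Bcl-xL thus shifted more than MCL1 or BCL2, which began at percentile 86.0.

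Of the death-promoting members, BAX had scores of 12 and 43 (75.2 points) and the BH3-only gene BMF 12 and 26 (60.7 points). BAK1, the partner of BAX in the outer mitochondrial membrane, had 20 and 19 (-23.8 points), just short of a fall. BIK (18 and 53, 24.9 points), BID (13 and 18, 21.4 points) and BCL2L11, for BIM (18 and 39, 20.9 points), were short of a rise. PMAIP1, for NOXA, had 31 and 39 (-5.11 points), BOK 20 and 25 (-3.15 points), HRK 24 and 33 (-2.09 points) and BBC3, for PUMA, 26 and 56 (3.26 points). With equal-length lists 4 of 13 genes rose (BAX, BCL2L2, BMF and BCL2L1) and BOK fell. BAK1, with a treated score at the edge of those lists, and BID, below it, had no pair there. Rises thus included members that favor and members that oppose survival.

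All 4 CK2 subunit genes had a pair, and 3 rose and 0 fell, against 33.7 and 6.03% of all genes. They started at a median untreated percentile of 41.6, against 65.0 over all genes, which leaves more room to rise. Relative to pairs with the same start, their median was 12.4 points, against 2.70 over all genes and 5.56 over all genes with a promoter pair. With equal-length lists 1 of 3 rose, against 20.7% of all genes. The peak at CSNK2A1, for the catalytic subunit alpha, had scores of 12 and 64 (79.1 points, and 75.4 with equal-length lists). Its peaks overlapped at one end only, and a reciprocal overlap of 50% would not pair them. The intronless CSNK2A3, a close copy of CSNK2A1 whose reads may be split with it, had 11 and 19 (48.2 points) and no pair in the equal-length lists. Its treated score of 19 was at the edge of those lists, where most tied peaks were left out. CSNK2B, for the regulatory subunit, had 17 and 50 (30.2 points, and 23.6 with equal-length lists). It was paired through the name of its untreated peak, since the treated list names no peak for CSNK2B. CSNK2A2, for alpha prime, had 25 and 103 (7.54 points) and was at percentile 91.7 before treatment.

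In the Ikaros family, 3 of 5 genes had a pair, of which 1 rose and 0 fell. The IKZF1 promoter peak at chr7:50303480-50304948 had scores of 26 and 46 and percentiles of 93.0 and 94.3 (1.24 points, and -6.62 with equal-length lists). IKZF4, for Eos, had 48 and 81 (-1.07 points). IKZF5, for Pegasus, had 12 and 19 (38.0 points) and no pair in the equal-length lists, its treated score being at their edge. The treated list names no peak for IKZF5, which was paired through its untreated peak. IKZF2, for Helios, had promoter peaks of 31 untreated and 86 treated, at percentiles of 96.9 and 98.7, which did not overlap. IKZF3, for Aiolos, had a treated promoter peak of 64 and no untreated peak. An intron pair of IKZF1, at chr7:50342681-50343237, had scores of 23 and 22 and percentiles of 88.3 and 68.4.

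Of the B-cell transcription factor genes, 30 of 32 had a pair, 6 rose (20.0%) and 1 fell (3.33%), with a median of 9.08 points. They started at a median untreated percentile of 86.0, against 65.0 over all genes with a pair, which leaves less room to rise. Relative to pairs with the same start, their median was 6.39 points, against 2.70 over all genes. Promoter pairs described 22 of the 30, and over all genes with a promoter pair that median was 5.56 points, close to theirs. FOXO1, which drives early B-cell genes, had an intron peak of 11 and 40 (84.3 points), and SPIB one of 11 and 22 (60.5 points). BCL6, the germinal center repressor, had 19 and 12 (-63.8 points), and ZEB2 34 and 31 (-11.8 points). Among genes of the pre-B receptor and the B-cell surface 3 of 21 rose and 2 fell, with a median of 3.12 points, and of -2.18 relative to pairs with the same start. The surface genes CD99 (12 and 43, 75.2 points) and CD83 (14 and 83, 58.3 points) rose. CD22, an inhibitory receptor (19 and 15, -42.8 points), and the kinase gene BLK (18 and 17, -25.2 points) fell. In the equal-length lists 4 of 19 rose and 5 fell.

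V(D)J recombination genes had 4 pairs among 11 members. XRCC6, for Ku70, had 12 and 103 (81.1 points), PRKDC 12 and 26 (60.7 points), HMGB1 26 and 56 (3.26 points) and RAG2 14 and 15 (-7.38 points). In the PI3K and inositol lipid group 5 of 28 rose (17.9%) and 1 fell, with a median of 2.95 points. PIK3R2 had 12 and 29 (65.6 points), PIK3CG 13 and 38 (61.5 points), INPP5D, for the phosphatase SHIP1, 27 and 26 (-15.3 points), and MTOR 13 and 10 (-27.8 points). In JAK-STAT and NF-kB signalling 5 of 21 rose (23.8%) and 2 fell, with a median of 4.73 points. NFKB1 (13 and 59, 66.9 points) and its feedback inhibitor gene TNFAIP3 (12 and 27, 62.6 points) rose, and NFKB2 (18 and 15, -37.9 points) and TYK2 (22 and 18, -34.9 points) fell.

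Of the death receptor and caspase genes 7 of 16 rose (43.8%) and 1 fell, with a median of 20.3 points, and of 14.3 with equal-length lists. With a reciprocal overlap of 50% these medians were 2.80 and -6.60. CFLAR, for the caspase-8 inhibitor c-FLIP, had 12 and 48 (76.6 points), CYCS, for cytochrome c, 11 and 23 (63.7 points), TNFRSF10B 21 and 18 (-32.1 points) and TNFRSF1A 31 and 24 (-22.6 points). Cell cycle genes rose in 11 of 29 cases (37.9%) and fell in 0. E2F2 had 10 and 33 (86.2 points), MCM2, of the replicative helicase, 11 and 43 (85.4 points), CDKN1A 38 and 65 (-1.39 points) and MCM5 33 and 24 (-23.4 points). MCM2 and MCM5, subunits of the same helicase, shifted in opposite directions, MCM5 by less than the limit for a fall. They started at percentiles 7.90 and 97.7, which left MCM2 little room to fall and MCM5 little room to rise.

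Chromatin regulators rose in 12 of 28 cases (42.9%) and fell in 0, led by SMARCB1 (10 and 23, 69.7 points) and MBD2 (13 and 49, 65.2 points), with SUZ12 (14 and 15, -7.38 points) and MTA1 (35 and 34, -9.35 points) lowest. Ribosomal protein genes had pairs for 16 of 37 members, of which 10 rose (62.5%) and 1 fell, with a median of 38.0 points. With equal-length lists 6 of 16 rose and 2 fell, with a median of 8.79 points. Their untreated median percentile was 45.1, against 65.0 over all genes. RPL35 had 11 and 42 (85.1 points), RPL22 12 and 32 (69.0 points), RPS2 29 and 32 (-8.54 points) and RPL19 22 and 20 (-25.4 points). Relative to pairs of the same untreated score the median was 8.51 points for ribosomal genes, 8.93 for chromatin regulators and 8.87 for cell cycle genes. It was 2.70 over all genes and 5.56 over all genes with a promoter pair, the class that described most genes of these groups. The lead of the ribosomal group over the other 2 was thus absent among pairs of equal starting score.

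The unfolded protein response and heat shock group rose in 4 of 12 cases (33.3%) and fell in 0. HSF1, for the master factor of the heat shock response, had an intron peak of 11 and 76 (90.3 points), and HSPA8 a promoter peak of 12 and 106 (81.1 points). HSP90AA1 had 41 and 202 (0.76 points) and HSPA1B 24 and 35 (-0.63 points). DNA damage response genes had a median of 2.94 points over 9 pairs, with MDC1 at 11 and 20 (52.7 points), RRM2B at 38 and 108 (0.56 points) and CHEK1 at 33 and 29 (-13.9 points). Glucose uptake and glycolysis genes rose in 3 of 20 cases. HK1 had 13 and 48 (65.0 points), TPI1 14 and 28 (42.0 points), the glucose transporter gene SLC2A1 34 and 30 (-12.9 points) and PFKFB2 23 and 22 (-20.0 points). The protein phosphatase PP1 genes, whose products act on Ikaros in opposition to CK2, rose in 1 of 7 cases. PPP1CA had 13 and 43 (63.5 points), PPP1CC 19 and 68 (21.9 points), PPP1R7 22 and 36 (4.17 points) and PPP1R10 24 and 22 (-21.8 points).

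Adhesion and migration genes had the lowest median in the whole lists, -0.13 points over 21 genes, of which 5 rose (23.8%) and 1 fell. With equal-length lists the median was -2.15 and 5 other gene groups were lower, and with a reciprocal overlap of 50% the whole-list median was 21.6. ITGA4, for an integrin subunit, had 13 and 40 (62.4 points), ICAM3 14 and 58 (56.3 points), CD44 13 and 11 (-23.4 points) and SELPLG, for the P-selectin ligand, 27 and 19 (-38.0 points). Genes of other cell types also had pairs, since a peak does not measure expression. Of T cell marker genes 5 of 14 rose and 1 fell, with CD247 (10 and 25, 74.8 points) highest and GATA3 (26 and 16, -53.5 points) lowest. Myeloid markers rose in 4 of 8 cases, erythroid and megakaryocyte markers in 1 of 6, neuron markers in 3 of 11 and liver and muscle markers in 3 of 7, and each of these fell in 0. With equal-length lists their falls were 2 of 7, 3 of 5, 3 of 9 and 1 of 6.

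**Figure D5:**
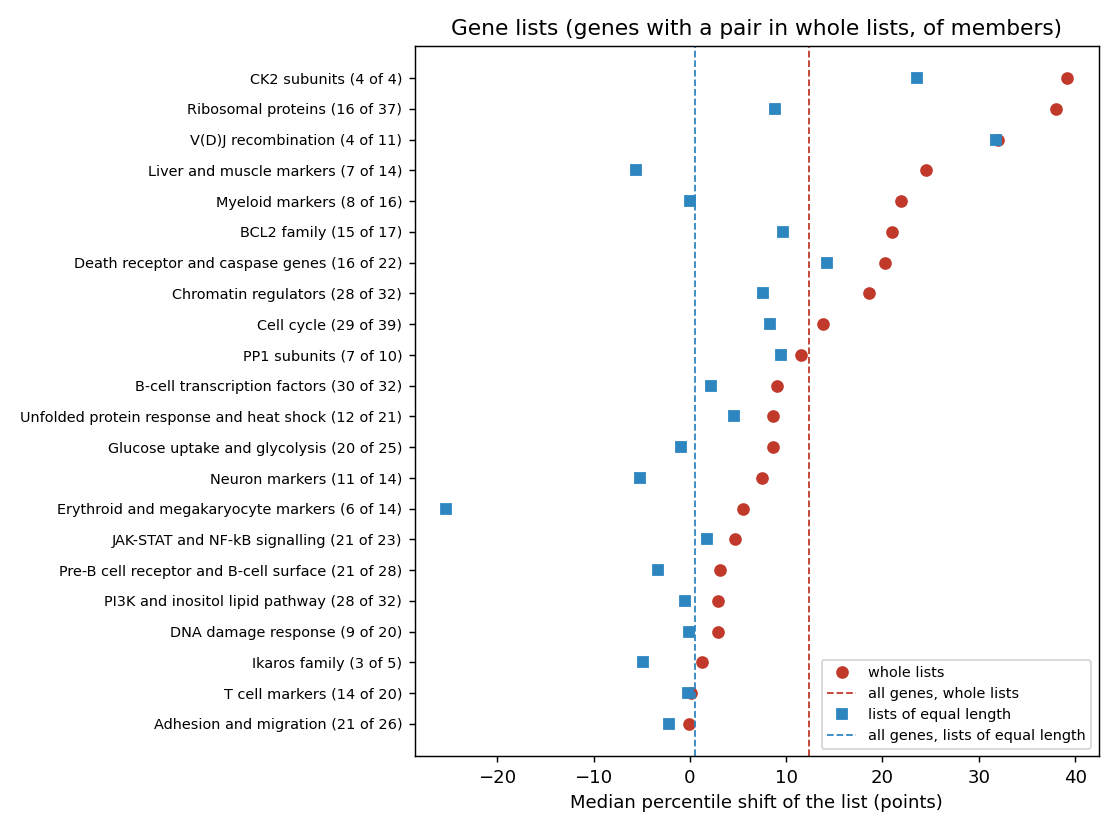
Median percentile shift (points) of each gene list in whole lists (red circles) and equal-length lists (blue squares), with dashed lines at the medians over all genes, 12.3 and 0.56 points, and the number of members with a pair in brackets. The CK2 subunits and ribosomal proteins stand highest in the whole lists and adhesion and migration genes lowest.

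The label of the line was checked against 11 genes that define B-cell precursors. Of these, 9 had a peak in the untreated and 10 in the treated list, and DNTT had none. They were paired in 8 cases, with 1 rise, 1 fall and a median shift of -6.01 points. Among genes that define other cells, 4 of 6 T cell, 3 of 6 myeloid, 1 of 4 erythroid and 3 of 4 neuron genes had an untreated peak, so peaks alone do not mark the lineage.

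In the whole lists, peaks of untreated REH overlapped 93.1% of all rises, 93.7% of pairs that neither rose nor fell and 84.8% of falls. Peaks of 697 overlapped 37.2, 46.4 and 16.9% of the same sets, so they met rises less often than unmoved pairs. At promoters, REH peaks overlapped 2937 of 2997 rises (a share of 97.4 to 98.5%), 98.8% (98.5 to 99.1) of pairs that neither rose nor fell and 90.8% (86.8 to 93.9) of falls. The median REH percentile of the overlapping peaks was 88.9, 91.0 and 74.5. In untreated JM1 the same 3 sets had median percentiles of 40.3, 83.3 and 83.3. The low untreated JM1 rank of the rises is fixed by how they were called. The 697 list, from a different antibody, overlapped 58.7, 67.8 and 34.0% of these sets, and the Nalm6 list, treated and from that other antibody, 90.4, 92.7 and 79.8%. Away from promoters REH peaks overlapped 91.0% of rises, 90.9% of unmoved pairs and 83.5% of falls. Whole-list falls were narrow in untreated JM1, with median widths of 711 bp at promoters and 590 bp elsewhere, against 1103 and 1028 bp in unmoved pairs. With equal-length lists falls had 1008.5 and 1065 bp, against 1138.5 and 1162 bp in unmoved pairs. Rises were the narrowest there, with 845 and 925 bp. REH peaks overlapped 96.5% of equal-length rises, 96.9% of unmoved pairs and 95.9% of falls, so that gap was small. The lists also differ in length, with 83563 peaks in REH, 19652 in 697 and 70894 in Nalm6. The line, the drug, the antibody and the list length cannot be told apart in these shares.

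In the whole lists the 200-bp windows at the pair centres held fewer CpG in falls, chiefly at promoters. Over all classes together, the share with the GGGAA core differed little. GGGAA, searched on both strands, was in 51.7% of all 25503 windows, 50.7% of rises and 52.2% of falls. The longer TGGGAA, which contains it, was in 17.0% of all windows, 17.2% of rises and 19.9% of falls. GGGGCGGGG, a GC-box sequence, was in 6.72, 6.44 and 2.61%, and CCGGAAG, an ETS-family core, in 3.73, 3.59 and 2.25%. The median GC content was 63.0% over all windows and 60.5% in falls, with medians of 8 and 5 CpG. At promoters it was 68.5% with 18 CpG over all windows and 63.5% with 10 CpG in falls. Away from promoters it was 61.0% with 6 CpG over all windows and 60.0% with 5 CpG in falls. In promoter windows GGGAA was in 51.5% of all and 48.6% of falls, and TGGGAA in 14.1 and 18.4%. Promoters held 8199 of all 25503 windows and 282 of the 1648 falls, so the pooled values mix classes unequally. With equal-length lists promoter medians were 19 CpG over all windows and 14 in falls. GGGGCGGGG was there in 8.30% of all windows and 5.18% of falls, and GGGAA in 51.6 and 53.4%. A match is a string of letters and not a shown binding site.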

How the data were processed

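Ikaros ChIP-seq peak lists of JM1 cells, untreated and after CX-4945, were compared. Bowtie2 2.3.4.3, MACS2 2.1.1, HOMER 4.10 and GRCh38 are named per the submitters' processing notes, and BBDuk trimming is recorded per the labels' protocols. Per the file headers, each deposited peak has coordinates, a score in whole numbers, an annotation and a gene, all from the authors. How the score is defined, how peaks were called and at what depth was not given in the sources used here, so lists could be compared by rank only. Peaks on other sequences (29 untreated, 70 treated) were left out.

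Overlaps, percentiles and medians were computed in Python 3.11.15 with pandas 2.3.3, numpy 2.4.6 and scipy 1.17.1, and the pairing was checked against bedtools 2.31.1 and tested on simulated data. Pairing ties went to the higher score and then the lower start. Ties at the edge of the equal-length lists were settled by chromosome and start. Matching on score used bins of at least 200 pairs. Distances and features are from GENCODE release 44.

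The pairs and the 22 gene lists were chosen with earlier results of these data known. Named were the 10 largest rises and falls (1 per gene), the 5 highest and 5 lowest genes with at least 3 pairs, the 5 largest changes of width each way, BCL2L1, the CK2 and Ikaros genes, and at most 4 members of each other list with the largest rise and fall. The other BCL2 family genes were named after their values had been seen. Sequences are the first 3 rises and 2 falls outside annotated UTRs. A further sequence and a gene that the rule names are not reported here. Alternatives were a reciprocal overlap of 50%, every overlapping pair, scores of at least 15, percentiles among paired peaks and ties kept at the edge.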

Additional observations from a re-analysis of the deposited data

How the results depend on the processing

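No paired analysis was possible because each condition had 1 list and no result comes from a test. Alternatives for start- and treated-matched differences, gene lists and single genes were chosen after seeing the data. Depth is unknown, and 1 list per condition is the main limit.

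Reciprocal overlap of 50% left 8756 whole-list and 7090 equal-length pairs, with 3057 and 1508 rises, 455 and 976 falls, 3 and 1 pairs 2-fold wider and 0 and 0 narrower, since that rule excludes most width changes of 2-fold. Promoter medians were 13.1 and 4.63 points, intergenic medians 13.8 and -1.18, start-matched differences (promoter minus intergenic) 12.4 and 16.8, and treated-matched differences -3.55 and -4.64. With every overlapping pair whole-list medians were 15.5 (promoter) and 18.1 (intergenic), start-matched differences 12.1 and 18.4, treated-matched differences -3.38 and -3.31, and 16121 equal-length pairs were 2-fold wider. Scores of at least 15 gave 6359 and 2259 rises, 2114 equal-length falls, 8605 and 4999 pairs wider, 207 and 107 narrower, a promoter median of 19.1 in the whole lists, intergenic medians of 13.9 and -6.96, and start-matched differences of 16.2 and 23.1. Percentiles among paired peaks gave 5001 rises and 4805 falls in the whole lists, a promoter median of 3.90 and an intergenic median of -4.39, so the intergenic direction turned, and start-matched differences of 22.04 and 21.1. Keeping ties at the edge moved no class value or count beyond its limit. Of the single-gene and gene-group values, 22 moved and 26 did not. The 22 included those of the 10 named equal-length falls and the CK2 median, which went from 23.6 to 15.6 points. The start-matched difference was positive under each alternative run. The V(D)J median turned to -2.06 points under reciprocal overlap (-1.85 equal-length) and to -3.38 with scores of at least 15 (equal-length). Under reciprocal overlap the medians of 3 of 22 gene groups changed sign in the whole lists and 7 in the equal-length lists. Adhesion moved from -0.13 to 21.6 (whole lists), death receptor and caspase genes from 14.3 to -6.60 (equal-length), and ribosomal proteins from 38.0 to 18.9 with scores of at least 15 (whole lists). The causes were not tested. At a reciprocal overlap of 50%, 5 of the 10 largest whole-list rises and 1 of the 10 largest falls (AC092364.2) kept a pair, and CSNK2A1, CSNK2B and IKZF5 had none. IKZF1 shifted by -7.34 points with whole-list percentiles among paired peaks, against 1.24.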

Other observations

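Windows with many copies of the Ikaros core were few and stood high in the untreated list. Over the 200 bases at the pair centre, 19 of the 25503 pairs had at least 10 non-overlapping matches to GGGAA or TTCCC. Their median percentile was 91.7 untreated and 78.9 treated, with a median shift of -9.36 points, 1 rise and 5 falls (26.3%). The 12313 pairs with 0 matches had a median shift of 15.8 points and 6.39% falls, and the 1301 pairs with 3 or 4 matches 12.3 points and 6.61%. Both of these sets started at a median percentile of 58.2, so the 19 had less room to rise. Relative to pairs with the same start, the median was -11.9 points for the 19 and 0 for both sets. Among the 19, an intron peak of ARHGAP19 had 28 matches and scores of 19 and 14 (-49.8 points), and the EBF1 intron peak 11 matches and scores of 22 and 15 (-53.1 points). Not all such windows fell. LINC01056, with 12 matches, had the scores 489 and 169 and stayed above percentile 99 in both lists, as did AFAP1, with 15 matches and scores of 209 and 119. The single rise was AL365436.1 (13 and 34, 59.1 points). With equal-length lists 14 such pairs were left, with a median shift of -26.9 points and 7 falls. This class was defined after the data had been seen and holds few pairs, and what sets its ranks was not tested. Reads in such repeats can map to several places, and their treatment by the authors was not given in the sources used here.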
